A study of Mus musculus with 13 samples.

Results

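The genes described here encode, in the nucleus, the subunits of mitochondrial respiratory complexes II, III, IV and V, measured in melanoma cells that had grown in mouse lungs. They were chosen by name: Sdha, Sdhb, Sdhc, Sdhd, Cyc1, Usmg5 and the protein-coding genes whose symbols start with Uqcr, Cox4, Cox5, Cox6, Cox7, Cox8 or Atp5, without Atp5s and Cox7a2l. The table of 22656 genes held 45 such genes, and 43 of them averaged at least 10 normalised counts across the libraries. Complex II had 4 of the 43, complex III 9, complex IV 13 and complex V 17. The genes left out for low values were Cox4i2 and Cox6b2, and 8 pseudogenes with such symbols were also left out.

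The study compared 8 libraries from APOE2 mice with 5 from APOE3 mice, knock-in animals that carry a human APOE allele. The design text gives these numbers as mice. Every mouse received 100000 cells of B16F10-TR-shApoe by the tail vein, and lungs were taken on day 15. B16F10 is a mouse melanoma line, and the derivative injected in both groups expresses a short hairpin that targets Apoe, so the groups differed in the allele of the host and not in the injected cells. Cells low in the dead-cell dye TO-PRO-3, negative for the leukocyte antigen CD45 and positive for GFP were sorted from collagenase-digested lung. The QuantSeq FWD kit, used for the libraries, counts the 3' ends of polyadenylated transcripts. The age and sex of the mice are not given in the sources used here, and no library without the hairpin was analysed.

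Complexes II to IV pass electrons along the inner mitochondrial membrane to oxygen. Complex II oxidises succinate and hands the electrons to ubiquinone, complex III carries them from ubiquinol to cytochrome c, and complex IV passes them to oxygen. Complex V, the ATP synthase, uses the proton gradient that complexes III and IV help to build. All subunits of complex II are nuclear, whereas the other complexes also hold subunits made from mitochondrial DNA. The B16 line is pigmented and is widely used to seed lung colonies.

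Libraries held between 7080308 and 13039989 reads, with reads in 14026 to 17018 genes. All 7 melanoma markers (Pmel, Tyr, Tyrp1, Dct, Mlana, Mitf and Sox10) were present in every library, and none differed between the hosts past the threshold used below. Their normalised counts summed to between 35233 and 51140 of each 1000000 in APOE2 and between 26018 and 37681 in APOE3. Dct led these sums, with means of 232522 normalised counts in APOE2 and 150389 in APOE3. On the log2 scale 4 of the 7 were higher in APOE2 and 3 (Tyr, Mitf and Sox10) were lower. The mean log2 value of the 7 differed by 0.12. Some libraries were often at an end of their group for the respiratory genes. APOE2 replicate 6 was the lowest of its group for 21 of the 43 genes, and APOE2 replicate 1 was the highest for 15. APOE3 replicate 2 was the lowest of its group for 21 and the highest for 13. Counts are also given without both APOE2 replicate 6 and APOE3 replicate 2, a choice made after the values of these genes were seen.

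Most nuclear genes of complexes II to V were somewhat higher in tumour cells from APOE2 hosts. The log2 fold change of APOE2 over APOE3 was above 0 for 36 of the 43, against 50.1% of all 12403 genes tested. The median of the 43 was 0.25, and that of all genes was 0.00037. Cox8a, Uqcrfs1, Usmg5 and Cox7c rose, with limma adjusted p-values under 0.05, and none of the 43 fell. Of all genes tested, 51 rose (0.411%) and 47 fell (0.379%). With every library scaled to the same total that split became 38 and 54, with 2 of the 43 called (Cox8a and Usmg5). An unadjusted p under 0.05 with a positive fold change was found for 20 of the 43, against 7.51% of all genes, and none of the 43 had one with a negative fold change. For Uqcr11 and Atp5g3 the groups did not overlap, with APOE2 above, as for 0.476% of all genes. Abundant protein-coding genes with short coding sequences (mean of at least 1000, at most 600 nucleotides) leaned the same way. These limits were set after the data were seen. Of 406 such genes outside the 43, 280 were above 0 (68.97%), 128 had such a p and a positive fold change, and 13 did not overlap. Of the 26 within the 43, the numbers were 25, 16 and 2.

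The number of calls moved with single libraries more than the number of genes above 0 did. Without APOE2 replicate 2 or without APOE3 replicate 3, none of the 43 passed limma's adjusted threshold, although 20 and 18 of them had an unadjusted p under 0.05, and edgeR and DESeq2 on all libraries called 8 and 9. Without APOE2 replicate 6 the count was 9, and without both APOE2 replicate 6 and APOE3 replicate 2 it was 11. Replicate 6 was low in these same genes, so leaving it out raises the APOE2 mean of many of them. Without APOE2 replicate 1, often the highest, the count was 1. With 1 library left out, between 34 and 37 of the 43 were above 0. Fold changes are on the log2(normalised count + 1) scale, except those named as from edgeR or DESeq2.

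**Figure D1:**
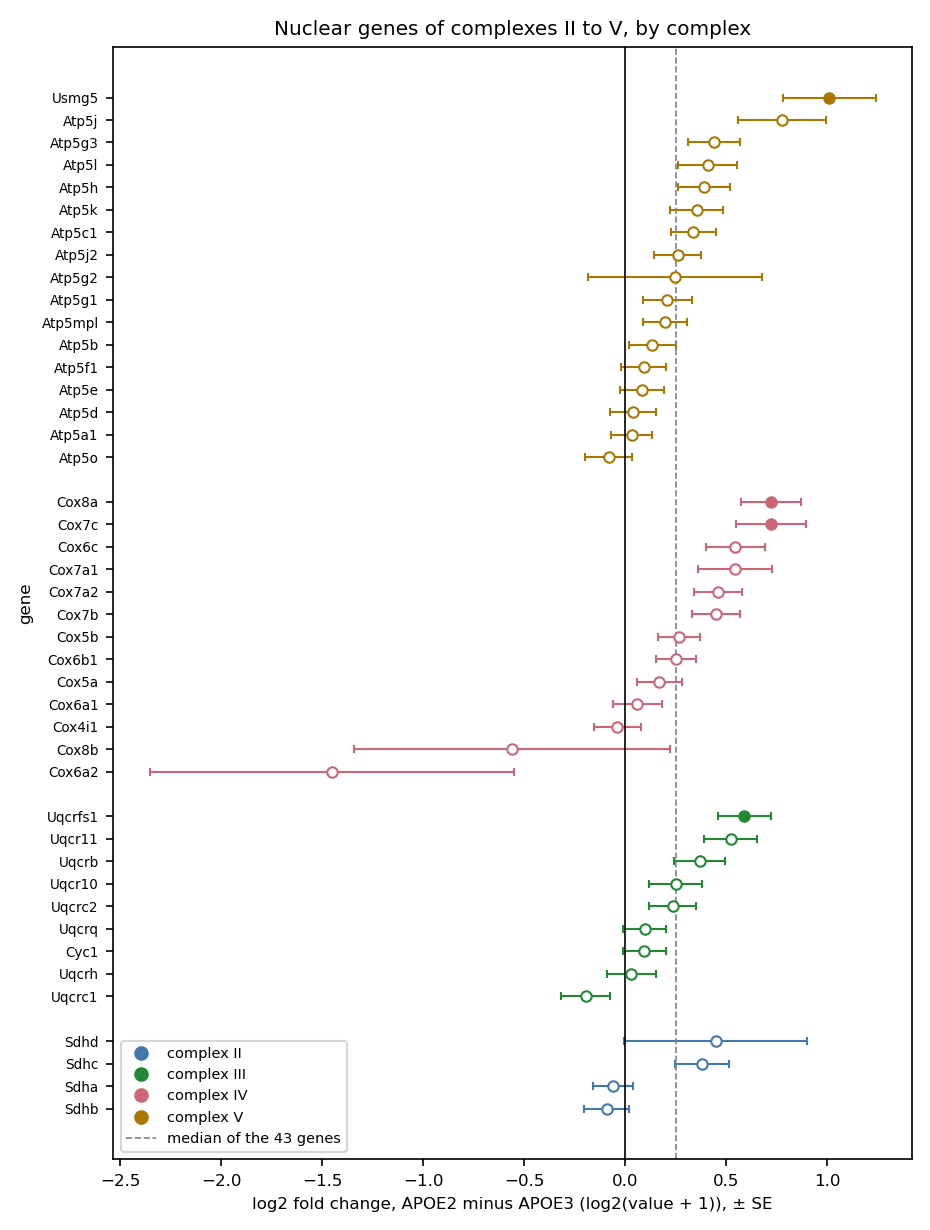
Log2 fold change (APOE2 minus APOE3) with its standard error for each of the 43 genes, grouped and coloured by complex. Filled circles are the 4 genes with a limma adjusted p under 0.05, and the dashed line is the median of 0.25. Points to the right of 0 are higher in APOE2, and the widest bars belong to the lowest genes, Cox6a2 and Cox8b.

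RNA of other lung cells also differed between the groups. Of 15 lung epithelium markers, 11 were tested, all 11 were below 0 and 6 were called lower in APOE2. Their sums ran from 96.2 to 497 of each 1000000 normalised counts in APOE2 and from 440.4 to 2596 in APOE3, and Epcam, Krt8, Krt18, Scgb1a1 and Hopx were at 0 in at least 1 library. Of 14 endothelial markers, 13 were tested, all below 0 and 2 called lower, with sums of 88.3 to 137 against 131.5 to 272 on the same scale. The fibroblast and smooth muscle markers (7 of 13 tested, all below 0, 1 called) summed to 14.0 to 54.7 against 32.9 to 233. For leukocytes, 8 of 14 markers were tested, 7 were below 0 and 2 were called lower, with sums of 59.5 to 302 against 260.3 to 1492. The 2 called were Lyz2 and Cd74. Lyz2 led the sum, with means of 1162 normalised counts in APOE2 and 5288 in APOE3. Of those not called, Laptm5 had −1.05, Tyrobp −0.95, Cd68 −0.41, Fcer1g −0.18, S100a8 −0.035 and S100a9 0.50 on the log2 scale. Ptprc, which encodes CD45, was too low to be tested. Lyz2 was highest in APOE3 replicate 4 (11891 normalised counts) and lowest in APOE2 replicate 3 (186). So was the epithelium marker Sftpc (10966 and 390), whereas Cd74 had its highest APOE2 value in APOE2 replicate 3 (48.7). Which cells gave the Lyz2 and Cd74 reads was not tested. The erythroid markers (3 tested, none called) summed to 4.80 to 22.04 against 2.84 to 26.8. Each of these sums was far below that of the melanoma markers, and all but the erythroid one had the higher mean in APOE3. Their part in the results below was examined only by adding epithelial, endothelial or heart muscle covariates. The covariates themselves differed between hosts. The mean log2 value of the epithelium markers ran from 3.63 to 6.14 in APOE2 and from 5.58 to 7.25 in APOE3. For the endothelial markers it ran from 4.28 to 5.39 and from 4.91 to 6.80. A fit with such a covariate cannot tell its part from that of the host allele. With the mean of the epithelium markers as a covariate, 36 of the 43 genes were above 0 with a median of 0.24. With the endothelial markers they were 38, with a median of 0.32. None of the 43, and no gene in the table, was called with either covariate, while 11 and 12 of the 43 had an unadjusted p under 0.05. In sorted bulk cells, fewer cells of a type and less RNA per cell cannot be told apart.

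In complex II none of the 4 members passed the threshold, and the head and the anchor were not tested against each other. The catalytic head, made of the flavoprotein Sdha and the iron-sulfur protein Sdhb, differed between hosts by less than its standard errors. Sdhb had log2 fold change −0.092 ± 0.11 (SE), the lowest of the complex, and Sdha −0.060 ± 0.10. The membrane anchors Sdhc and Sdhd, which hold the head in the inner membrane and form the ubiquinone site, had 0.38 ± 0.13 and 0.45 ± 0.45. With the epithelium covariate Sdhd turned to −0.45, and with the endothelium covariate Sdha turned to 0.10 and Sdhb to 0.039. Sdhc ran from 3657 to 4797 normalised counts in APOE2, with a median of 4591. In APOE3 it had 4095, 2142, 3229, 3882 and 3969. The groups overlapped, 6 APOE2 libraries lay above the highest APOE3 library, and the limma adjusted p was 0.190. Sdhd was a low gene here, with 24.8 to 274 normalised counts in APOE2 (median 128) and 153, 56.5, 162, 25.4 and 138 in APOE3. Its wide spread covered both groups (limma adjusted p = 0.697).

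Complex III had 8 of 9 members above 0, and 1 of them rose. Uqcrfs1 (ENSMUSG00000038462, GRCm38 chr13:30540308-30545362, minus strand) encodes the Rieske iron-sulfur protein, which takes the first electron from ubiquinol. It ran from 3800 to 5285 normalised counts in APOE2, with a median of 4632. In APOE3 it had 3928, 1985, 3062, 3222 and 3141. All but 1 APOE2 library exceeded the highest APOE3 library, and APOE3 replicate 2 was well below the rest. The fold change was 0.59 ± 0.13 (SE) on the log2 scale. Its limma adjusted p, 0.0334, missed the threshold in 8 of 13 fits without 1 library. Cyc1, the cytochrome c1 heme subunit that receives the electron from the Rieske protein, had 0.095 ± 0.11.

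Among the small subunits of complex III, Uqcr11 (ENSMUSG00000020163, chr10:80402997-80406830, minus strand) separated the hosts completely. Its APOE2 libraries ran from 2293 to 4578 normalised counts, with a median of 2898, and its APOE3 libraries had 2206, 2183, 2038, 2285 and 1731. The highest APOE3 value lay just under the lowest APOE2 value. The log2 fold change was 0.52 ± 0.13 (SE), and the limma adjusted p of 0.0598 missed the threshold. Uqcrb had 0.37 ± 0.13 and Uqcr10 0.25 ± 0.13. Uqcr10 shows how APOE3 replicate 2 enters these tests: 4 APOE3 libraries had 7761 to 8451 normalised counts, below every APOE2 library, and replicate 2 had 14136, above them all. Uqcrq had 0.097 ± 0.11 and Uqcrh, the hinge protein, 0.031 ± 0.12. The core proteins went in opposite directions, with Uqcrc2 at 0.24 ± 0.12 and Uqcrc1 at −0.20 ± 0.12, the lowest of the complex. Uqcrc1 had 887 to 1511 normalised counts in APOE2 (median 1209) and 1260, 1533, 1210, 1300 and 1484 in APOE3, with overlapping groups and a limma adjusted p of 0.478. With the epithelium covariate its log2 fold change turned to 0.088.

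Complex IV held the gene with the smallest p-value of the 43 and had the most calls. Cox8a (ENSMUSG00000035885, chr19:7215153-7217616, minus strand) encodes a small single-span subunit of cytochrome c oxidase. It ran from 8208 to 19297 normalised counts in APOE2, with a median of 12136. The APOE3 values were 8273, 6254, 6691, 8220 and 7735. The groups touched only at APOE2 replicate 6, and the other 7 APOE2 libraries were above all of APOE3. On the log2 scale Cox8a rose by 0.72 ± 0.15 (SE). Its limma adjusted p, 0.0241, missed the threshold in 2 of 13 fits without 1 library, at 0.0721 at most. It was the only one of the 43 called without APOE2 replicate 1, 3, 5 or 8 or without APOE3 replicate 4.

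Cox7c (ENSMUSG00000017778, chr13:86044816-86046904, minus strand), a small transmembrane subunit, rose by the same amount, 0.72 ± 0.17 (SE). Its normalised counts ran from 3222 to 6272 in APOE2, with a median of 5059, and were 3447, 1573, 3320, 2976 and 3887 in APOE3. As with Cox8a, 7 APOE2 libraries were above the highest APOE3 library and replicate 6 was not, and APOE3 replicate 2 was the lowest of all. The limma adjusted p was 0.0444, and it missed the threshold in 10 of the 13 fits without 1 library. The next common subunits were also small and cross the membrane: Cox6c at 0.55 ± 0.15, Cox7a2 at 0.46 ± 0.12 and Cox7b at 0.45 ± 0.12, with limma adjusted p-values from 0.0643 to 0.0799. Each had 7 APOE2 libraries above the highest APOE3 library.

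The remaining common subunits of complex IV did not pass the threshold. Cox5b, which binds zinc on the matrix side, had log2 fold change 0.27 ± 0.11 (SE), Cox6b1 0.25 ± 0.10 and Cox5a 0.17 ± 0.11. The membrane-spanning Cox6a1 had 0.060 ± 0.12. Cox4i1, the largest nuclear subunit, had −0.038 ± 0.12 and was the only common subunit below 0. Over the 10 common subunits the median was 0.36, 9 were above 0 and 7 had an unadjusted p under 0.05.

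None of the tissue-restricted isoforms of complex IV passed the threshold. Cox7a1, the heart and skeletal muscle partner of Cox7a2, had 377 to 758 normalised counts in APOE2 (median 490) and 314, 342, 431, 313 and 361 in APOE3. The difference was 0.55 ± 0.18 (SE) on the log2 scale, with a limma adjusted p of 0.171. Cox6a2, the muscle partner of Cox6a1, was near the detection limit, from 0 to 23.8 in APOE2 (median 6.86) and at 26.3, 9.04, 8.33, 28.2 and 20.8 in APOE3. Its −1.45 ± 0.90 was the lowest fold change of the 43 and did not pass (limma adjusted p = 0.482). Cox8b, the muscle partner of Cox8a, had 0 to 45.4 in APOE2 (median 14.1) and 24.2, 12.4, 26.0, 59.3 and 4.63 in APOE3, for a log2 difference of −0.56 ± 0.78. Cox4i2, the lung isoform beside Cox4i1, had reads in 2 APOE2 libraries, up to 1.73 normalised counts, and in no APOE3 library. Cox6b2, known from testis and partner of Cox6b1, had at most 3.41 in APOE2 and 41.4 in APOE3 replicate 4.

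Cox6a2 and Cox8b are heart muscle genes, so markers of the heart muscle sleeves of pulmonary veins were also read. Cox7a1, the other heart and skeletal muscle isoform, had the opposite sign at 0.55 ± 0.18 (SE). It averaged 463 normalised counts over all libraries, against 13.7 for Cox6a2 and 21.3 for Cox8b. Of 12 markers, 9 were tested, 8 were below 0 and Myl7 was called lower, with means of 13.8 ± 15.2 under APOE2 (SD, n = 8) and 80.4 ± 30.7 under APOE3 (SD, n = 5). Their sums ran from 7.10 to 52.9 of each 1000000 normalised counts in APOE2 and from 44.2 to 107 in APOE3. Only Myh6, Tnnt2 and Ttn had reads in every library. With the mean of these markers as a covariate, chosen after seeing the data, the fold change of Cox6a2 turned to 0.51 and that of Cox8b to 1.26, and 38 of the 43 genes were above 0.

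Complex V had 16 of 17 members above 0, and 1 rose. Usmg5 (ENSMUSG00000071528, chr19:47083464-47090647, minus strand), also named Atp5md, encodes a small membrane subunit linked to dimers of the synthase. Its normalised counts ran from 7695 to 21025 in APOE2, with a median of 15365. The APOE3 values were 10051, 3054, 7937, 7826 and 9735. As with Cox8a, APOE2 replicate 6 was the single library of its group within the APOE3 range. The log2 fold change of 1.01 ± 0.23 (SE) was the largest of the 43. Its limma adjusted p was 0.0367 and missed the threshold in 9 of 13 fits without 1 library. Usmg5 overlaps Taf5 on the opposite strand. The strand setting of the counting is not given in the sources used here, so reads of Taf5 cannot be told apart.

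The other membrane subunits of complex V were also above 0. Atp5l (subunit g) had log2 fold change 0.41 ± 0.14 (SE), Atp5k (subunit e) 0.36 ± 0.13, Atp5j2 (subunit f) 0.26 ± 0.12 and Atp5mpl 0.20 ± 0.11. The c-ring, which turns as protons pass, is made from 3 genes that encode the same mature protein. Of these Atp5g3 (ENSMUSG00000018770, chr2:73908447-73911326, minus strand) ran from 41840 to 55921 normalised counts in APOE2, with a median of 49066, and had 41693, 27858, 33132, 39390 and 37598 in APOE3. The groups did not overlap, though the highest APOE3 and lowest APOE2 libraries were close. Its log2 fold change was 0.44 ± 0.13 with a limma adjusted p of 0.108. Atp5g1 had 0.21 ± 0.12, with 7 APOE2 libraries above the highest of APOE3. Atp5g2 was low, with 16.2 to 116 normalised counts over all libraries, and had 0.25 ± 0.43, a sign that turned with edgeR and DESeq2.

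The stalks and the catalytic head of the synthase held both large and small differences. In the peripheral stalk, Atp5j, the coupling factor, ran from 5224 to 12389 normalised counts in APOE2 (median 9261) and had 8076, 2572, 7024, 3936 and 6758 in APOE3. The APOE3 libraries were scattered and 6 APOE2 libraries were above them all. The log2 fold change was 0.78 ± 0.22 (SE) and the limma adjusted p 0.0943. Atp5j overlaps Gabpa on the opposite strand. Atp5h (subunit d) had 0.39 ± 0.13, Atp5f1 (subunit b) 0.092 ± 0.11 and Atp5o (the oligomycin sensitivity subunit) −0.081 ± 0.12, the lowest of the complex. Atp5o had 6779 to 8728 normalised counts in APOE2 (median 7389) and 6983, 10949, 7218, 8539 and 6518 in APOE3, with overlapping groups. In the catalytic head and central stalk all 5 genes were above 0 with a median of 0.083. The gamma subunit Atp5c1 stood out with 0.34 ± 0.11 (limma adjusted p = 0.158), beside Atp5b (beta) at 0.13 ± 0.12, Atp5e (epsilon) at 0.083 ± 0.11, Atp5d (delta) at 0.037 ± 0.11 and Atp5a1 (alpha) at 0.032 ± 0.10. For Atp5d and Atp5a1 the sign turned under equal totals, to −0.0034 and −0.0088.

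**Figure D2:**
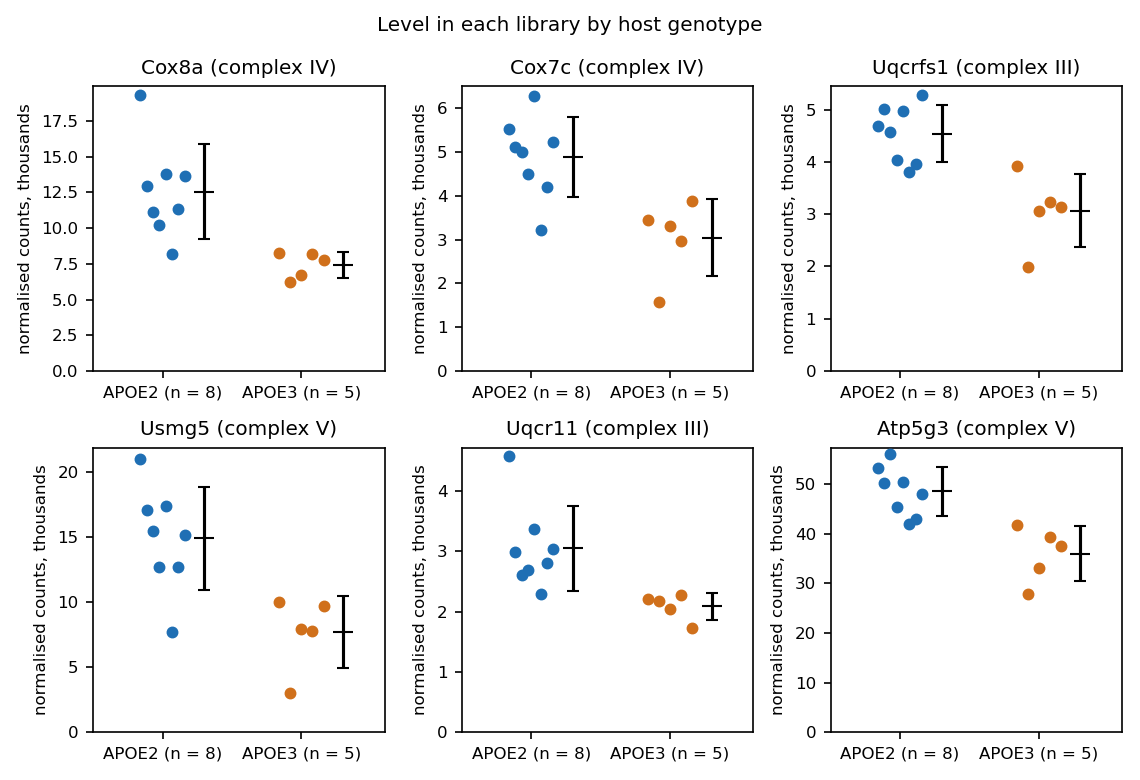
Normalised counts in units of 1000 for the 4 genes that rose and the 2 whose groups did not overlap, 1 point per library, with mean ± SD beside each group. Uqcr11 and Atp5g3 show no overlap. In the panels of Cox8a, Cox7c, Uqcrfs1 and Usmg5 the lowest APOE2 point, replicate 6, lies within the APOE3 range.

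Several other members share exons with a gene on the opposite strand, so their counts carry the same doubt. These are Cox6c with Vps13b, Cox5a with Gm26631, Cox4i1 with Emc8, Cox6a2 with Itgad, Uqcrb with Gm10767, Uqcrc2 with Pdzd9, Atp5a1 with Haus1, Atp5d with Cbarp, Atp5l with Gm30934, Atp5f1 with Gm42890 and Wdr77, and Atp5o with D430001F17Rik and Gm15976. On the same strand, Atp5o overlaps a second entry of that name and Atp5g2 overlaps Mir688, so a strand setting would not separate those reads. Cox8a, Cox7c, Uqcrfs1, Uqcr11 and Atp5g3 had no overlap on either strand. Pseudogene copies exist for several of the families, and reads split between near-identical copies were not examined.

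Summed by complex, the share of the library given to these genes was larger in APOE2 for complexes III, IV and V. All 43 genes together made up 40171 ± 3096 (SD, n = 8) of each 1000000 normalised counts under APOE2 and 33469 ± 2045 (SD, n = 5) under APOE3, a ratio of 1.2. The APOE2 libraries ran from 34514 to 43270, and the APOE3 libraries had 35400, 30515, 32193, 34587 and 34650. Only APOE2 replicate 6 fell within the APOE3 range. The ratio was 0.991 for complex II, 1.11 for complex III, 1.283 for complex IV and 1.197 for complex V. A sum is led by its most abundant genes, so the mean of log2 values over the genes of each complex was also taken. That mean differed by 0.17 for complex II, 0.22 for complex III, 0.29 for complex V and 0.36 for the common subunits of complex IV (0.17 with the muscle isoforms). In complex II the low gene Sdhd, at 0.45 ± 0.45 (SE), weighs as much in this mean as each abundant gene. For complex III it separated the groups, from 11.90 to 12.24 in APOE2 and from 11.77 to 11.89 in APOE3. No test was made of these summaries because the genes were chosen with results known.

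**Figure D3:**
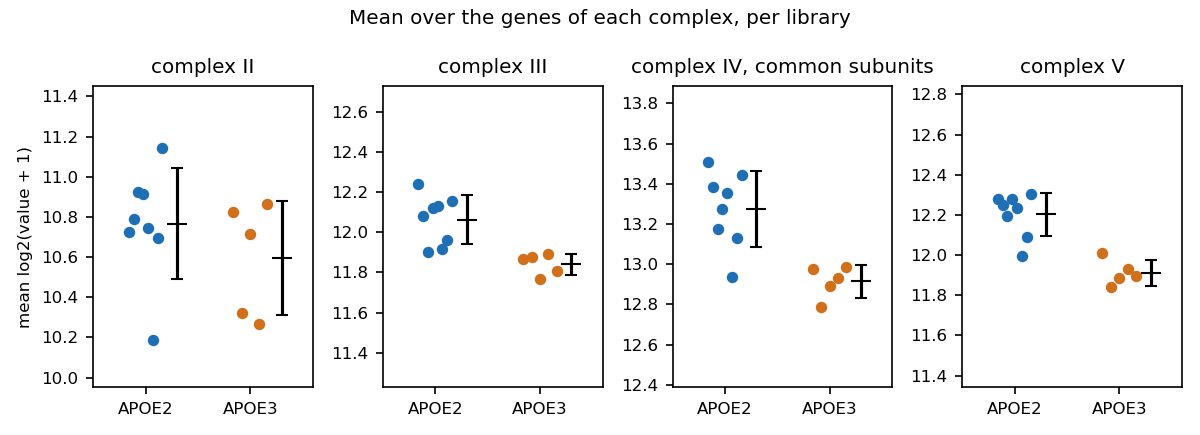
Mean of log2(normalised count + 1) over the genes of each complex, 1 point per library with mean ± SD beside each group (8 APOE2 and 5 APOE3 libraries). The y axis is a log2 scale of equal span in each panel and does not start at 0. In complex II the groups overlap, and in complex III all APOE2 points, 11.90 or more, are above all APOE3 points, 11.89 or less.

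The genes also varied together within a group. After the group means were removed, the median correlation over pairs of the 37 members that averaged at least 1000 normalised counts was 0.27 over 13 libraries, against 0.012 over pairs of all 1674 such genes. Those points share library, depth and scaling, so this is a description. Over the 40 members other than the muscle isoforms, APOE2 replicate 6 deviated most, by −0.26 from its group mean on the log2 scale, followed by replicate 8 at 0.14 and replicate 1 at 0.13. APOE3 replicate 2 deviated by only −0.084, because its members went both ways. It was the highest of its group for Sdhb, Cyc1, Uqcrc1, Uqcrh, Uqcrq, Uqcr10, Cox4i1, Cox6a1, Atp5d, Atp5g2, Atp5j2, Atp5k and Atp5o. It was the lowest for the 4 genes that rose and for Atp5g3, Atp5j and Sdhc among others.

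**Figure D4:**
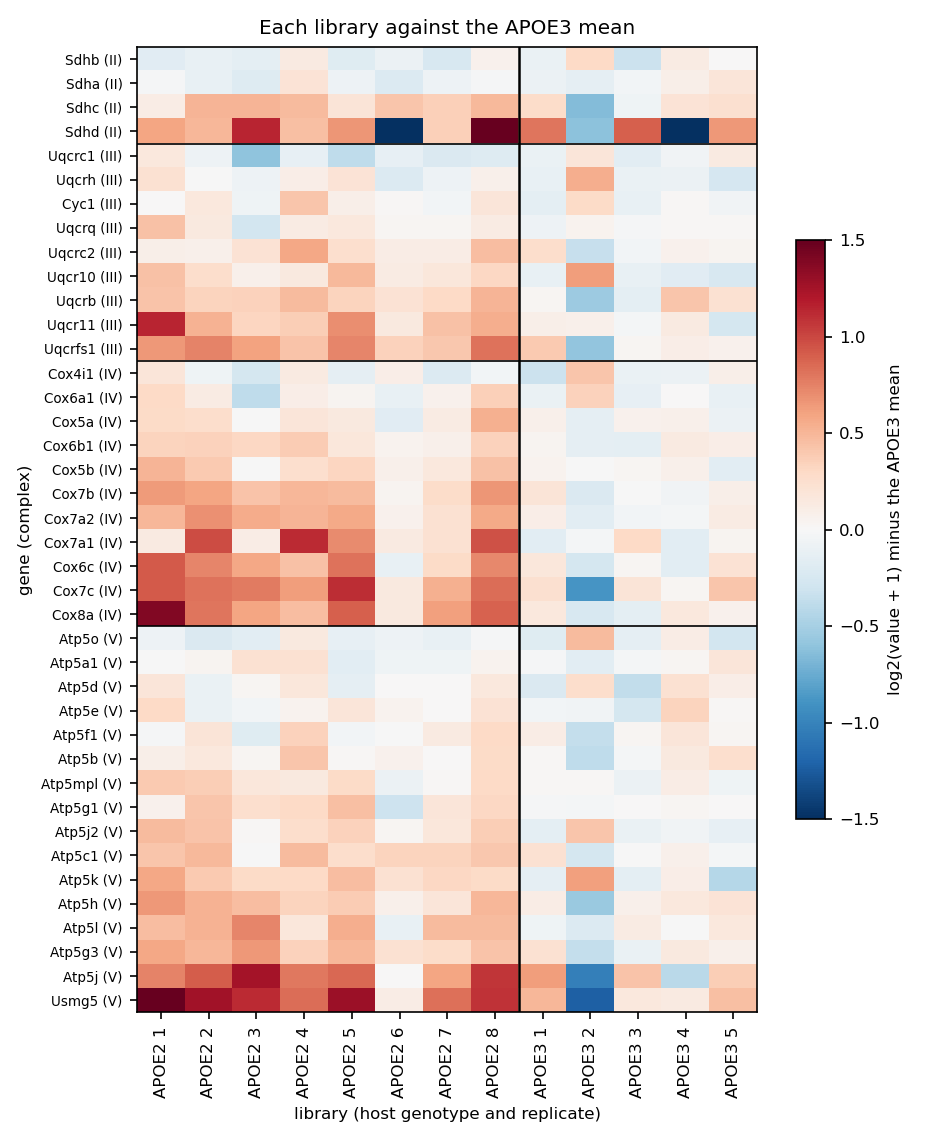
Log2(normalised count + 1) of each gene in each library minus the APOE3 mean, ordered by complex and fold change. Colours end at −1.5 and 1.5. Atp5g2, Cox6a2 and Cox8b, which had the lowest means of the 43 genes, are not drawn. Red is above the APOE3 mean, and the pale column of APOE2 replicate 6 and the mixed red and blue column of APOE3 replicate 2 are the libraries named in the text.

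The members with short coding sequences had the larger fold changes. Among the 32 with a coding sequence of at most 600 nucleotides, the median was 0.31, 29 were above 0 and 3 rose. The 11 longer ones had a median of 0.092, with 7 above 0 and 1 risen (Uqcrfs1). Across the 40 genes without the muscle isoforms, Spearman's rho of fold change on coding length was −0.51. Other protein-coding genes showed a like but shallower pattern. Of those with a mean of at least 1000, the 406 short ones had a median of 0.12 with 17 risen, the 1212 longer ones had 0.021 with 7 risen, and rho over all 1618 was −0.23. Genes are not independent replicates, so no p is given, and both limits were set after the data were seen. After removal of the dependence on transcript length and GC in every library, the median of the 43 was 0.18 against 0.029 over all genes, 35 stayed above 0, and Cox8a and Usmg5 were called.

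**Figure D5:**
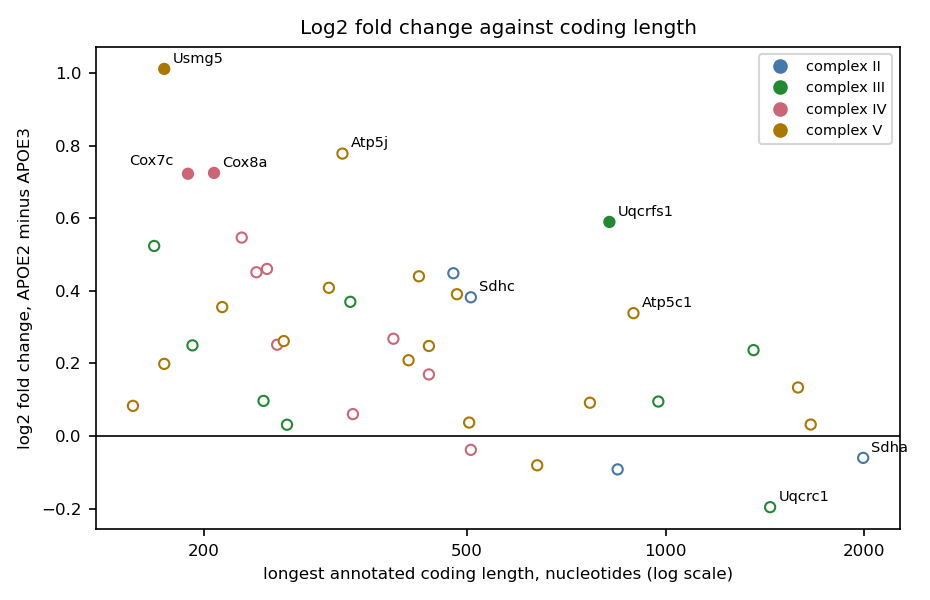
Log2 fold change (APOE2 minus APOE3) against the longest annotated coding length in nucleotides (log axis) for the 40 genes without the muscle isoforms Cox6a2, Cox7a1 and Cox8b, coloured by complex, with the 4 called genes filled. Short genes such as Usmg5 and Cox8a sit at the top left and the long Sdha and Uqcrc1 below 0 at the right (Spearman's rho −0.51).

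Nuclear respiratory genes are known for promoters with sites of NRF1, of ETS factors such as GABP and of YY1, so the promoters of the genes that rose or did not overlap are shown. The sequences are from RefSeq on GRCm38.p6, all on the minus strand, written 5′ to 3′, 150 bases each from 120 bases before the annotated start. Capitals mark an ETS core (CCGGAAG or its reverse complement) or the looser NRF1 pattern (GCGCANGCG or its reverse complement).
Uqcrfs1 promoter, chr13:30545287-30545436: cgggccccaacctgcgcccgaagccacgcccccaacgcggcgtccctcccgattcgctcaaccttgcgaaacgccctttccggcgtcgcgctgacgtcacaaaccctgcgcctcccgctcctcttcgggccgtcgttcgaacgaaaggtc
Uqcr11 promoter, chr10:80406792-80406941: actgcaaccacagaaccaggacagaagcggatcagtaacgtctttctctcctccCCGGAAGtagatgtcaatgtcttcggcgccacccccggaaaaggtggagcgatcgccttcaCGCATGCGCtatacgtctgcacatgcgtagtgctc
Cox8a promoter, chr19:7217587-7217736: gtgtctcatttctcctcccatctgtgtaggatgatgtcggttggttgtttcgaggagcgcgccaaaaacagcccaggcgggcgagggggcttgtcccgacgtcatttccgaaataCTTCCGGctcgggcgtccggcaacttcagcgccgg
Cox7c promoter, chr13:86046766-86046915: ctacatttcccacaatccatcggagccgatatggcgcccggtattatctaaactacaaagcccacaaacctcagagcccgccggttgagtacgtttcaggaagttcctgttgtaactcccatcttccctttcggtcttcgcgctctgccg
Atp5g3 promoter, chr2:73911297-73911446: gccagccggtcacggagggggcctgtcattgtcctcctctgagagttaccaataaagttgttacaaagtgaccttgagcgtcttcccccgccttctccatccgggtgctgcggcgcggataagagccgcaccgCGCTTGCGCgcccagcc
Usmg5 promoter, chr19:47090618-47090767: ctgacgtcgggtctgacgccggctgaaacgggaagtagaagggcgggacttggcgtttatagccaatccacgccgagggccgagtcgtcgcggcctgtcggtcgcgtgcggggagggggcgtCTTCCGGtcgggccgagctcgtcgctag

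The promoters of Uqcrfs1 and Cox7c held none of the searched patterns in this window, Cox8a and Usmg5 held an ETS core, Atp5g3 held the looser NRF1 pattern and Uqcr11 held both. A promoter sequence was matched by symbol or synonym for 33 of the 43 genes. The wider window of 250 bases before to 50 after the start was searched on both strands. Sdhc, Cyc1, Uqcrb, Uqcrc2, Uqcrq, Cox4i1, Cox6a2, Cox6c, Atp5a1 and Atp5mpl were unmatched. The ETS core CCGGAAG was in 13 of the 33 (39.4%), against 12.9% of the promoters of 17492 genes. The looser NRF1 pattern GCGCANGCG was in 12 (36.4%) against 9.63%, and the NRF1 core TGCGCATGC, which can share bases with it, was in 3 (9.09%) against 2.23%. The YY1 core AAGATGGCG was in 2 (6.06%, Atp5j and Atp5j2) against 2.14%. Members with an ETS core had a median fold change of 0.39, and those without it 0.25, on the log2 scale. For the looser NRF1 pattern the medians were 0.35 and 0.25, for the YY1 core 0.52 and 0.25, and for the NRF1 core 0.25 and 0.26. A match is a description of the letters only.

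Genes that build, serve or regulate the complexes were read from the same fit. Of the 4 assembly factors of complex II, 3 were above 0 with a median of 0.16, and the smallest p was that of Sdhaf2 at 0.39 (limma adjusted p = 0.271). For complex III it was 4 of 6 with a median of 0.25, and the smallest p was that of Uqcc2 at 0.36 (limma adjusted p = 0.171). For complex IV it was 13 of 21 with a median of 0.10, and Pet100 rose by 0.55 ± 0.13 (SE; limma adjusted p = 0.0385). Pet100 ran from 656 to 972 normalised counts in APOE2 and had 765, 514, 537, 499 and 565 in APOE3, overlapping at APOE2 replicate 3 and APOE3 replicate 1. Its exons overlap Pcp2 on the opposite strand. For complex V it was 4 of 5 with a median of 0.21, and the smallest p was that of Fmc1 at 0.42 (limma adjusted p = 0.171). No other assembly factor passed the threshold.

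Cytochrome c, the carriers for ADP, ATP and phosphate and the outer membrane pores were above 0 in 5 of 7, with a median of 0.14 and a smallest limma adjusted p of 0.421 (Slc25a4). Among the inhibitor and supercomplex factors, 3 of 4 were above 0. Atpif1, the natural inhibitor of the ATP synthase, had 0.33 ± 0.12 (SE), and Cox7a2l, which joins complexes III and IV, had −0.28 ± 0.13, neither past the threshold (limma adjusted p = 0.220 and 0.332). The tricarboxylic acid cycle, which shares Sdha to Sdhd with complex II, had 5 of 13 other genes above 0 and a median of −0.0058. Its smallest p was that of Mdh2, malate dehydrogenase, at −0.36 ± 0.10 (limma adjusted p = 0.103). Of 13 transcription factors and coactivators of respiratory genes, 7 were above 0 with a median of 0.096, and none passed. Tfam had 0.34 ± 0.15 (limma adjusted p = 0.308), Ppargc1a 0.16 ± 0.15, Nrf1 −0.029 ± 0.14 and Gabpa −0.19 ± 0.24.

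The mitochondrially encoded partners did not share the direction. Only mt-Cytb of complex III and mt-Co1 of complex IV were in the table used here, of 6 listed. mt-Cytb had log2 fold change −0.10 ± 0.14 (SE; limma adjusted p = 0.797) and mt-Co1 −0.20 ± 0.11 (limma adjusted p = 0.444). The nuclear genes of complex I had 28 of 37 above 0, a median of 0.17 and 4 that rose (Ndufa1, Ndufa6, Ndufb1-ps and Ndufb11). Among all 1674 genes with a mean of at least 1000 the median was 0.047 and 30 rose. Differences between these lists were not tested.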

How the data were processed

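Gene expression was measured in 13 libraries. The authors deposited 1 table of normalised counts per gene, a signal that is never negative. Per the submitters' processing notes, the tools were STAR 2.6.0, featureCounts and DESeq2 1.28.1 with build mm10; the annotation and strand setting are not given in the sources used here. In every library 100% of values were whole multiples of 1 step (tolerance 1e-06), and whole reads were recovered from these. Gene identifiers were matched to GENCODE M21 on GRCm38 (22649 found, 7 not).

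Libraries were grouped by the labelled genotype, and log2(value + 1) was analysed. Genes with a mean of at least 10 were tested (12403) in R 4.3.3 by limma 3.58.1, two-sided, with the prior variance following intensity, Benjamini-Hochberg adjustment over all genes and a threshold of 0.05. No covariate was used. Depth was 7080308 to 13039989 reads. The labels name no molecular identifiers, so read totals give counting error only. Members and lists were chosen with earlier results of these data known. Genes given in full were those past the threshold, the 2 with the smallest p and the 1 with the lowest fold change in each complex, and tissue isoforms; Atp5g3 was added after its values were seen. In related lists, those past the threshold and the 1 with the smallest p were named by the rule; Cox7a2l, Ppargc1a, Nrf1 and Gabpa were named for their known roles.

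Alternatives were pseudocounts of 0.5 and 5, equal totals, TMM and recomputed median-of-ratios scaling, a minimum mean of 50 or none, leaving out each library, a replicate block, limma without trend and with robust variance, edgeR 4.0.16 and DESeq2 1.42.0 on recovered reads, removal of length and GC trends (splines of 5 degrees of freedom), and marker covariates. The heart muscle covariate and the removal of both APOE2 replicate 6 and APOE3 replicate 2 were chosen after seeing the data. The limma step was tested on simulated data. Figures were drawn with matplotlib 3.10.9.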

Additional observations from a re-analysis of the deposited data

Results flagged for a closer look

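Each gene and each complex mean was screened within each group for a library set apart from the rest of its group by a gap above Dixon's 95% limit. Of 94 screens 8 found one, and chance gives about 1 in 20, or 4.7. APOE3 replicate 2 accounted for 5. It was above the rest of its group for Uqcr10 (14136 normalised counts, next 8451), Uqcrh (11986, next 7700.4), Cox6a1 (9874, next 7813) and Atp5j2 (7525, next 5437). It was below the rest for Atp5h (1423, next 2210.4). Sdha was high in APOE2 replicate 4 (2449 normalised counts, next 2101). The mean log2 value of complex II was low in APOE2 replicate 6 (10.19, next 10.70), where Sdhd had 24.8 normalised counts, its lowest value in APOE2. The mean log2 value of complex IV, muscle isoforms included, was low in APOE2 replicate 3 (10.79, next 11.29), the library in which Cox6a2 and Cox8b were both at 0.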

How the results depend on the processing

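The median log2 fold change of the 43 genes was above 0 under every alternative run, from 0.18 with length and GC trends removed to 0.37 with the heart muscle covariate. The counts of calls moved more. Of the 43 genes, equal totals called 2, length and GC trends removed 2, edgeR 8 and DESeq2 9. Limma with robust variance called 5, without Usmg5 and Cox7c and with Atp5g3, Cox7a2 and Cox7b beside Cox8a and Uqcrfs1. A pseudocount of 0.5 called 3, without Cox7c. No filter, limma without the trend and each of the epithelium, endothelium and heart muscle covariates called 0 by limma, while 20, 19, 11, 12 and 19 of the 43 had an unadjusted p under 0.05. Without both APOE2 replicate 6 and APOE3 replicate 2 the count was 11. Over all genes, a pseudocount of 5 called 73 lower, no filter 5 higher and 4 lower, edgeR 61 higher and 77 lower, and DESeq2 153 higher and 158 lower. Limma without the trend and the 3 covariates called 0 in each direction, with 1599, 861, 661 and 1164 genes at an unadjusted p under 0.05. With 1 library left out, the 43 genes gave 0 to 9 calls, and all genes gave 5 to 131 higher and 4 to 97 lower. The cause of these shifts was not tested.

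The replicate numbers did not pair the libraries: correlations of same-numbered libraries ran from −0.063 to 0.014, and none correlated best with its own number. With the replicate block, 17 genes were called higher and 26 lower, 3 of them among the 43 (Cox7c, Cox8a and Usmg5).

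Apart from Uqcrc1 (−0.20 in the main fit, mean of 1256 normalised counts), log2 fold changes that turned sign were small or belonged to low genes. Equal totals gave Uqcrh −0.0094, Atp5a1 −0.0088 and Atp5d −0.0034. With 1 library left out, the ranges that crossed 0 were −0.055 to 0.10 for Atp5d, −0.056 to 0.64 for Atp5g2, −0.031 to 0.17 for Uqcrh, −0.0084 to 0.076 for Atp5a1, −0.12 to 0.067 for Cox4i1 and −0.15 to 0.037 for Atp5o. Without both libraries Cox4i1 was 0.047 and Atp5o 0.037. Atp5g2 was −0.048 with edgeR and −0.056 with DESeq2. Uqcrh was −0.13 with length and GC trends removed. With the epithelium covariate Sdhd was −0.45, Uqcrc1 0.088, Cox4i1 0.14, Cox8b 0.98, Atp5a1 −0.016 and Atp5g2 −0.31. With the endothelium covariate Sdha was 0.10, Sdhb 0.039, Cox4i1 0.074 and Atp5g2 −0.66. With the heart muscle covariate Sdha was 0.0095, Cox6a2 0.51, Cox8b 1.26 and Atp5a1 −0.031. Depth limits Cox6a2, Cox8b and Atp5g2, whose highest libraries had 28.2, 59.3 and 116 normalised counts.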
